A study of Mus musculus with 12 samples.

Results

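The 12 cortical RNA-seq libraries fell into 7 with more choroid plexus RNA and 5 with less. The split was made on the measured levels of Ttr, Kl and Folr1, genes of the choroid plexus epithelium, and not on the labels. The 7 libraries with more were replicates 1 and 2 of APP/PS1/Sirt3-/-, replicates 1, 2 and 4 of APP/PS1, replicate 2 of Sirt3-/- and replicate 2 of WT. The 5 with less were replicate 4 of APP/PS1/Sirt3-/-, replicates 1 and 4 of Sirt3-/- and replicates 1 and 4 of WT. Since measured values made the classes, every difference between them is given as a description, with no test.

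The study compared the cortex of mice aged 8 months, labelled female, in 4 groups of 3 libraries: APP/PS1/Sirt3-/-, APP/PS1, Sirt3-/- and WT. APP/PS1 mice carry transgenes of familial Alzheimer's disease, mutant amyloid precursor protein among them, and the Sirt3 deletion, of a mitochondrial deacetylase, is global and so includes the choroid plexus. The methods name APP/PS1 mice in C57BL/6 and both WT and Sirt3-/- mice in each of 129 Sv and C57BL/6, and do not say which background these libraries have. The choroid classes are not balanced over the groups. APP/PS1/Sirt3-/- had 2 libraries with more and 1 with less, APP/PS1 had 3 with more and none with less, and both Sirt3-/- and WT had 1 with more and 2 with less. In APP/PS1 the genotype and the class therefore cannot be told apart within the group. All 4 libraries numbered 2 were in the class with more.

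Reads counted in genes numbered 15251720 to 18644376 per library in the 7 libraries with more choroid plexus and 16046016 to 17918122 in the 5 with less. Several libraries went against their labels. Replicate 4 of every group held reads of Y-linked genes and almost none of Xist, which is 1 of the 7 libraries with more and 3 of the 5 with less. App was 1623 CPM (reads relative to library sizes scaled by TMM) in the library labelled APP/PS1 replicate 4, against 3614 and 3794 CPM in the other APP/PS1 libraries and 1755 to 1828 CPM in WT. Sirt3 was 28.6 and 27.7 CPM in those labelled APP/PS1/Sirt3-/- replicates 1 and 4, against 0.211 CPM in replicate 2. In reads these were 495, 479 and 4, against 957 to 1064 in WT and 3 to 8 in Sirt3-/-. Groups below are those of the labels, and counts are also given without the libraries that went against them. The defining markers of cortical projection neurons were high in every library, with Slc17a7, the main vesicular glutamate transporter of the cortex, at 807 to 1449 CPM in the libraries with more choroid plexus and 1354 to 1835 CPM in those with less.

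The choroid plexus lies inside the brain ventricles and is a sheet of epithelial cells around a core of leaky capillaries. Its epithelium secretes cerebrospinal fluid, moves ions and water with a dense set of transporters, and releases carrier proteins such as transthyretin into the fluid. It is no part of the cortex, and it borders the hippocampus, thalamus and striatum along the ventricle walls. In bulk RNA, fewer cells of a type and less RNA per cell cannot be told apart.

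Promoters of the genes that separated the classes are shown for 3 members, because OTX2, a homeodomain factor that the choroid plexus needs, is known to bind the letters TAATCC. Each window holds 250 bases before and 50 bases after the gene start in RefSeq's annotation of GRCm38.p6, read on the gene's strand, with TAATCC or its reverse complement GGATTA in capitals. Kl (chr5:150952357-150952656, plus strand), 1 of the markers behind the split, held neither. Otx2 itself (chr14:48665060-48665359, minus strand) and Mfrp (chr9:44101520-44101819, plus strand), a membrane frizzled-related protein, held 1 match each. These windows of Otx2 and Mfrp were picked for print because they held the letters. Otx2 has other windows as well, starting at 48662685, 48667459 and 48667595, and none of those held a match.
Kl: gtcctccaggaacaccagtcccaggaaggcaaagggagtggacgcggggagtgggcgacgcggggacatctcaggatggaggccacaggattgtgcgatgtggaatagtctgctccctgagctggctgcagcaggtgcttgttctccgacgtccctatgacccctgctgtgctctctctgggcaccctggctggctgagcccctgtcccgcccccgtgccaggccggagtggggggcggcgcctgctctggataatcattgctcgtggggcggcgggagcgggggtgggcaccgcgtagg
Otx2: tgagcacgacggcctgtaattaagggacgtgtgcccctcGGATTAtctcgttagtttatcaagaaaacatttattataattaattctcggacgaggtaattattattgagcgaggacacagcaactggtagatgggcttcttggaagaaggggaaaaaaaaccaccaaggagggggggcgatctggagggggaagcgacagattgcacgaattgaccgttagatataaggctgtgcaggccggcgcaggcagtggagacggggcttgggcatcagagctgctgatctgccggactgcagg
Mfrp: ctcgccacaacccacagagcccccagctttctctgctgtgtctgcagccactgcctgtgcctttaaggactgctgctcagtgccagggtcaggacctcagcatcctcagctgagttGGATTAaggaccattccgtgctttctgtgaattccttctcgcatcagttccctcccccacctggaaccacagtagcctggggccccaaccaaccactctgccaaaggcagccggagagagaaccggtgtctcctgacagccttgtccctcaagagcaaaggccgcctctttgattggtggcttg
On both strands together, the letters were present in 2320 of 32851 promoter windows of all genes (7.06%). Of the choroid plexus genes listed below that were higher in every library with more, 27 matched the RefSeq table by symbol, with 37 windows. The letters stood in 5 of these windows (13.5%), those of Abca4, Ace, Car14, Mfrp and Otx2. In the other choroid plexus genes tested they stood in 2 of 39 windows (5.13%). These are counts of letters, and binding was not measured.

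Transthyretin separated the classes most widely among the choroid plexus genes. Ttr (ENSMUSG00000061808, chromosome 18 from 20665250 to 20674324 in mm10, protein-coding) encodes the thyroid hormone carrier of the cerebrospinal fluid. It was 555 and 445 CPM in APP/PS1/Sirt3-/- replicates 1 and 2, and 481, 1014 and 1079 CPM in APP/PS1 replicates 1, 2 and 4. It was 1185 CPM in Sirt3-/- replicate 2 and 1568 CPM in WT replicate 2. The 5 libraries with less held 9.55 CPM (APP/PS1/Sirt3-/- replicate 4), 9.06 and 9.44 CPM (Sirt3-/- replicates 1 and 4) and 20.3 and 8.44 CPM (WT replicates 1 and 4), the order kept for these 5 below. The classes did not overlap, and the highest and the lowest of the libraries with more differed by 3.52-fold, against a gap of 21.97-fold between the lowest with more and the highest with less. The medians of the classes were 107-fold apart.

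Kl (ENSMUSG00000058488, chromosome 5 from 150952607 to 150993809, protein-coding) encodes Klotho, a receptor partner of fibroblast growth factor 23 that the choroid plexus also sheds. It was 15.6 to 58.0 CPM with a median of 34.6 in the libraries with more choroid plexus, and 3.99, 1.86, 2.79, 6.39 and 2.22 CPM in those with less. Folr1 (ENSMUSG00000001827, chromosome 7 from 101858331 to 101870788, protein-coding) encodes the folate receptor that carries folate into the fluid. It was 3.69 to 15.6 CPM with a median of 7.40 in the libraries with more, and 0.289, 0.496, 0.190, 0.457 and 0.571 CPM in those with less, on 3 to 9 reads each. WT replicate 2 was the highest library for all 3 markers, and APP/PS1/Sirt3-/- replicate 2 the lowest with more for Ttr and Kl. The narrowest gap was that of Kl, 2.44-fold between APP/PS1/Sirt3-/- replicate 2 and WT replicate 1.

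**Figure D1:**
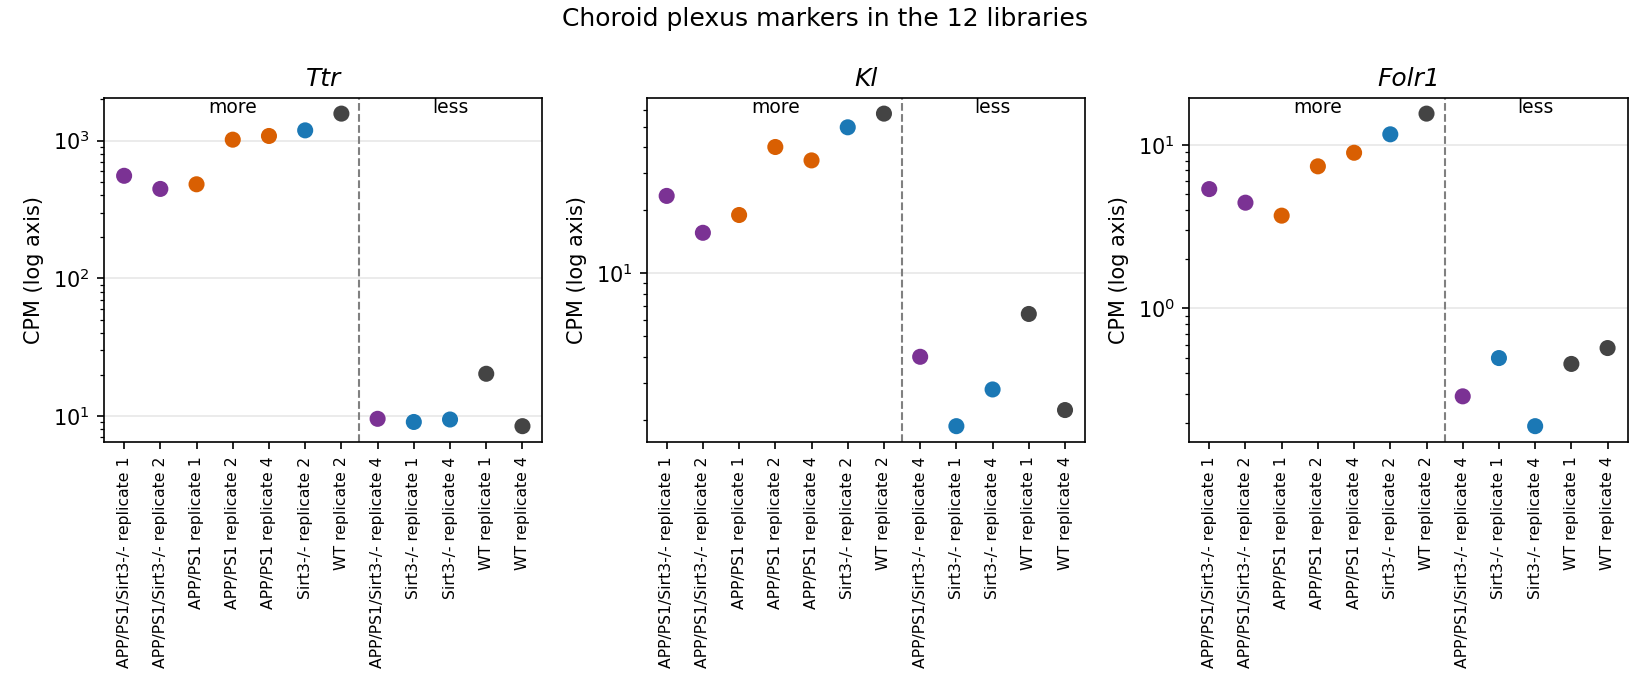
CPM of Ttr, Kl and Folr1 on log axes in each of the 12 libraries, with colours for the 4 genotypes and a dashed line between the 7 libraries with more choroid plexus (left) and the 5 with less (right). Ttr lies between 445 and 1568 CPM left of the line and between 8.44 and 20.3 CPM right of it.

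Within each of the 3 genotypes that had both classes, Ttr differed by 5.68 (APP/PS1/Sirt3-/-), 6.98 (Sirt3-/-) and 6.89 (WT) on the log2 CPM scale, more minus less, a mean of 6.52 ± 0.72 (SD over 3 genotypes). Kl differed by 3.50 ± 1.13 and Folr1 by 4.33 ± 0.63. Each marker alone placed 12 of 12 libraries in the same class, but the split was made on these 3 markers, so this is no check of it. The mean over the other 70 choroid plexus genes tested, which the split did not name, also placed 12 of 12, and its widest gap, 0.80 on the log2 scale, lay below the same 7 libraries. These genes were measured in the same RNA, so they are no independent evidence. Genotype took 25.7% of the variance of log2 CPM of Ttr over the 12 libraries and the class took 96.5%. The shares overlap and do not add up, since the classes are not balanced over genotypes, and genotype has 4 levels where the class has 2.

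Choroid plexus genes were grouped by role in 5 lists with 78 genes, of which 73 had enough reads to be tested across the libraries. Of the 73, 37 were higher in all 7 libraries with more choroid plexus than in all 5 with less, and none was lower in all 7. Across all 16673 genes tested, 192 were higher in this way (1.15%) and 127 were lower (0.762%). On the deposited FPKM scale these 2 counts over all genes were 287 and 73. Without Ttr, Kl and Folr1, 34 of 70 were higher. Without the 3 libraries that went against their App or Sirt3 label the count was 40 of 70, and without the 4 that held Y-linked reads it was 43 of 70, with 1 lower. The median difference over the 70 genes was 0.96 on the log2 scale, against 0.0064 over all genes. The genes were drawn up as markers of the tissue that defined the classes, so nothing is read from these shares.

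Among the 19 secreted and carrier proteins tested, 8 were higher without overlap, with a median difference of 0.91 over the list. Enpp2, the lysophospholipase autotaxin, was 328 to 889 CPM with a median of 477 in the libraries with more choroid plexus, and 169, 221, 209, 173 and 220 CPM in those with less. The classes did not overlap, at a mean difference of 1.67 ± 0.53. F5, coagulation factor V, was 4.38 to 21.6 CPM in the libraries with more and 0.434 to 0.914 CPM in those with less (4.13 ± 0.84). Sostdc1, a secreted inhibitor of bone morphogenetic protein signaling, was 3.22 to 12.6 CPM in the libraries with more and 0.186 to 1.16 CPM in those with less.

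Other secreted proteins that are often listed for the choroid plexus overlapped between the classes. Cst3, the protease inhibitor cystatin C, and Clu, the chaperone clusterin, were abundant in every library. Cst3 was 823 to 1006 CPM in the libraries with more and 890 to 1066 CPM in those with less, a mean difference of 0.01 ± 0.10. Clu was 707 to 850 CPM in the libraries with more and 642 to 804 CPM in those with less, a mean difference of 0.09 ± 0.03. Both are also made by glia throughout the brain. Igfbp2, which binds insulin-like growth factors, was 45.3 to 63.8 CPM in the libraries with more and 23.7 to 47.3 CPM in those with less, so the classes overlapped at WT replicate 1. Within genotype Igfbp2 was higher in the libraries with more, by 0.99 in APP/PS1/Sirt3-/-, 0.88 in Sirt3-/- and 0.51 in WT. Igf2, a growth factor that the meninges make as well, was 66.9 to 131 CPM in the libraries with more and 30.5 to 82.4 CPM in those with less. It too was higher within each genotype, by 1.17 in APP/PS1/Sirt3-/-, 1.82 in Sirt3-/- and 0.58 in WT.

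Transporters and channels held the largest share of separating genes, 14 of 21, with a median difference of 1.25. Aqp1, the water channel of the apical membrane, was 2.95 to 15.4 CPM with a median of 8.49 in the libraries with more choroid plexus, and 0.405, 0.186, 0.443, 0.742 and 0.508 CPM in those with less. Slc4a5, a sodium bicarbonate cotransporter, was 3.01 to 15.8 CPM in the libraries with more and 0.0620 to 0.285 CPM in those with less. Kcne2, a potassium channel subunit, was 2.53 to 11.9 CPM in the libraries with more and 0.0571 to 0.254 CPM in those with less. The mean differences were 3.98 ± 1.05 for Aqp1, 4.98 ± 1.27 for Slc4a5 and 4.59 ± 1.21 for Kcne2, and none of the 3 overlapped. In the libraries with less these genes rest on few reads, 3 to 13 each for Aqp1, and their differences depend on the prior count of 2 reads.

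The transporters that neurons and glia also use separated by less. Slc12a2, the sodium potassium chloride cotransporter, was 85.1 to 104 CPM in the libraries with more and 63.8 to 79.0 CPM in those with less (0.49 ± 0.13). Slc4a2, an anion exchanger, was 51.0 to 75.7 CPM in the libraries with more and 36.0 to 45.5 CPM in those with less (0.74 ± 0.27). Trpm3, a cation channel, was 43.3 to 67.4 CPM in the libraries with more and 19.7 to 31.8 CPM in those with less (1.25 ± 0.21). These 3 still did not overlap, whereas Atp1b1, a sodium pump subunit of all neurons, was 1108 to 1284 CPM in the libraries with more and 1091 to 1158 CPM in those with less (0.04 ± 0.05).

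APP/PS1/Sirt3-/- replicate 4 stood apart from the other libraries with less for some of these genes. Clic6, a chloride channel family member, was 15.5 to 47.3 CPM in the libraries with more, 13.4 CPM in APP/PS1/Sirt3-/- replicate 4 and 1.27 to 5.51 CPM in the other libraries with less. Its difference was 0.44 in APP/PS1/Sirt3-/-, 3.29 in Sirt3-/- and 3.82 in WT. Car12, a carbonic anhydrase, overlapped between the classes, at 20.9 to 54.9 CPM in the libraries with more and 31.5, 29.0, 19.3, 10.8 and 9.90 CPM in those with less. Drd1 and Ppp1r1b of the striatum moved with Car12, being high in Sirt3-/- and in APP/PS1/Sirt3-/- replicate 4, and their part in its level was not tested.

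Of 13 receptors and surface proteins tested, 7 separated, Kl and Folr1 included, and the list's median difference was 1.17. Tmem72, a transmembrane protein, was 1.53 to 7.11 CPM in the libraries with more and 0.0620 to 0.174 CPM in those with less. Mfrp, whose promoter is printed above, was 3.48 to 13.3 CPM with a median of 7.65 in the libraries with more, and 0.868, 0.558, 0.697, 1.31 and 0.762 CPM in those with less (3.24 ± 1.04). Ace, the angiotensin converting enzyme, was 23.5 to 46.6 CPM in the libraries with more and 15.3 to 19.1 CPM in those with less (1.17 ± 0.47). Cd59a, which blocks the complement pore, had an even difference, 0.90, 1.18 and 0.96 in APP/PS1/Sirt3-/-, Sirt3-/- and WT.

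Prlr, the prolactin receptor, separated with a narrow gap, since APP/PS1/Sirt3-/- replicate 4 held 7.12 CPM. The libraries with more held 8.13 to 27.8 CPM and the other 4 with less 0.381 to 3.99 CPM. Htr2c, the serotonin receptor 2C, is abundant in choroid epithelium and is also found in striatal and other neurons. It was 34.1 to 63.6 CPM in the libraries with more and 41.7, 18.7, 18.6, 15.99 and 11.7 CPM in those with less, so the classes overlapped at APP/PS1/Sirt3-/- replicate 4. Igf2r, the mannose 6-phosphate receptor of all cells, was about level, at 46.3 to 56.9 CPM in the libraries with more and 41.8 to 55.1 CPM in those with less.

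Epithelial junction and keratin genes gave 6 of 13 without overlap and a median difference of 0.65. Cldn2, the claudin that makes a junction leaky to cations, was 2.22 to 10.1 CPM in the libraries with more choroid plexus and 0.231, 0, 0.253, 0.228 and 0.317 CPM in those with less. Krt8 and Krt18, the keratin pair of simple epithelia, were 0.910 to 3.32 and 1.55 to 6.38 CPM in the libraries with more and 0.0620 to 0.628 and 0.124 to 0.633 CPM in those with less. Cab39l, a scaffold of the LKB1 kinase, separated at a mean difference of only 0.40 ± 0.21. Spint2, a protease inhibitor of epithelia, separated at 0.51 ± 0.48. Perp, a desmosome protein, overlapped (0.65 ± 0.64), as did Vat1l at 56.8 to 181 CPM in the libraries with more and 27.9 to 122 CPM in those with less. Ezr, which ties membranes to actin, did not differ in 1 direction, with -0.46 in APP/PS1/Sirt3-/-, 0.09 in Sirt3-/- and 0.30 in WT.

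Transcription factors of the list gave 2 of 7 without overlap and a median difference of 0.51. Otx2 was 5.25, 4.75, 4.17, 7.33, 7.08, 5.49 and 6.58 CPM in the libraries with more, taken in turn from the APP/PS1/Sirt3-/-, APP/PS1, Sirt3-/- and WT groups, and 1.39, 0.620, 0.760, 0.514 and 0.254 CPM in those with less. The mean difference was 2.78 ± 1.01. Lmx1a, a factor of the roof plate from which the choroid plexus forms and of midbrain dopamine neurons, was 0.535 to 1.48 CPM in the libraries with more and 0 to 0.124 CPM in those with less. Msx1, a homeobox factor, overlapped in CPM but differed by 1.02, 1.28 and 1.02 in APP/PS1/Sirt3-/-, Sirt3-/- and WT.

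Tfap2b, an AP-2 factor that neurons also make, was highest in APP/PS1, which has no library with less. Within APP/PS1/Sirt3-/- it was higher in the libraries with more, replicates 1 and 2, than in replicate 4. It was 5.51, 6.05 and 6.79 CPM in APP/PS1 and 4.33, 3.06 and 1.39 CPM in APP/PS1/Sirt3-/-, against 1.11 CPM in the Sirt3-/- library with more choroid plexus and 1.79 CPM in the WT one. Genotype took 85.5% of its variance and the class 48.5%. Hopx, a homeodomain protein of glia, was level between classes (-0.03 ± 0.06), and Foxj1, the master factor of motile cilia, was 14.2 to 20.1 CPM in the libraries with more and 10.6 to 15.4 CPM in those with less. Mia, Slco1a5, Tmem27, Epcam and Msx2 had too few reads to be tested.

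**Figure D2:**
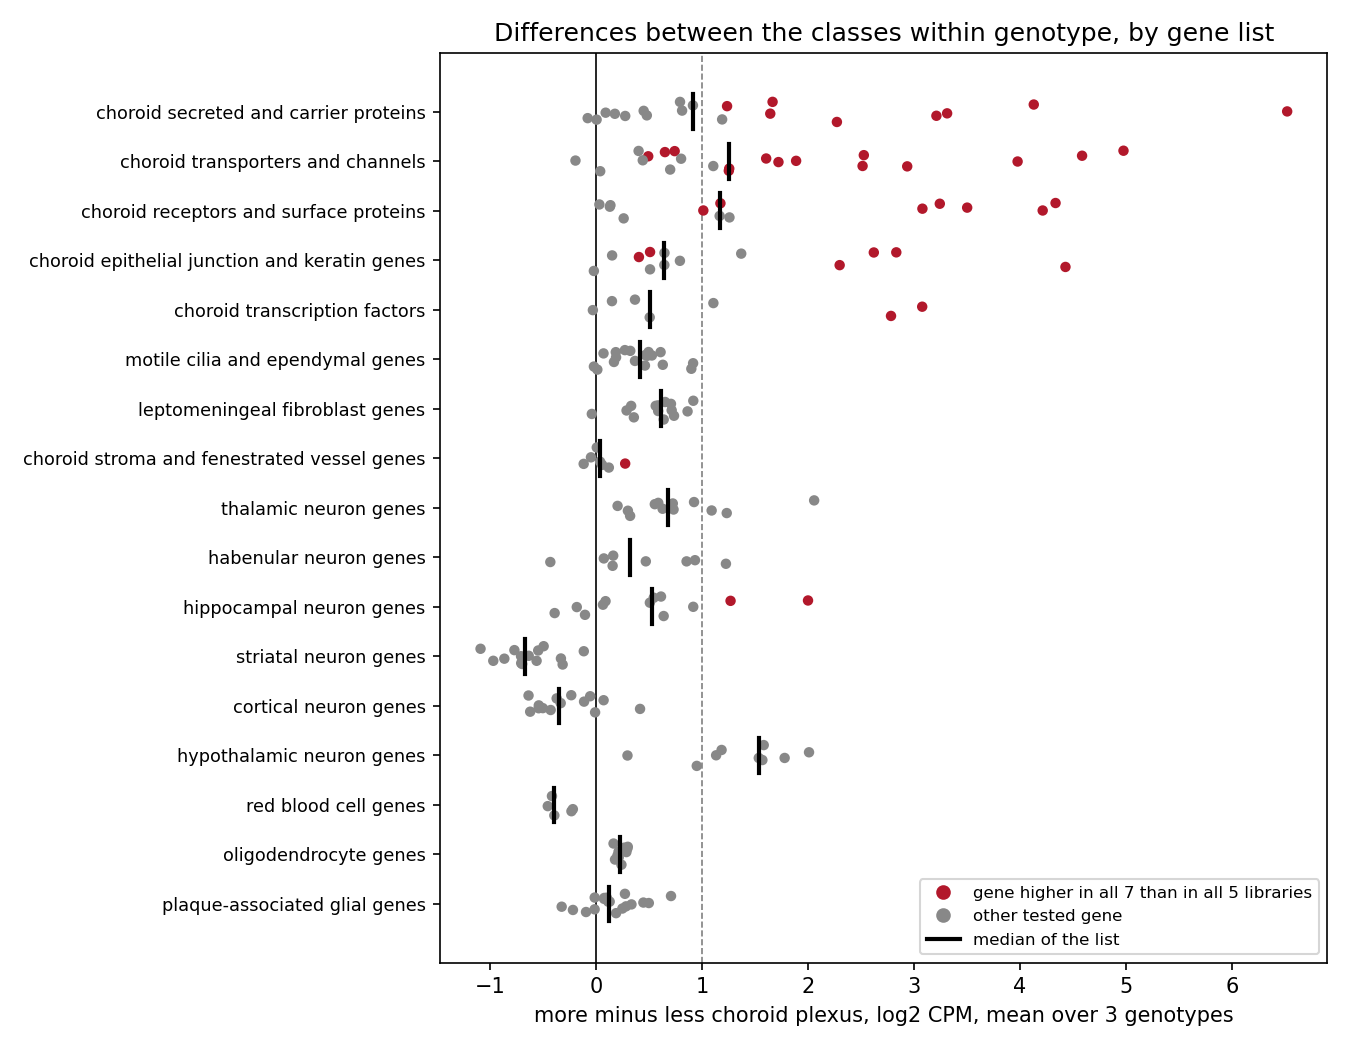
Difference in log2 CPM, more minus less choroid plexus, averaged over APP/PS1/Sirt3-/-, Sirt3-/- and WT, with a point for each tested gene by gene list and a line at each list's median. The 5 choroid lists have medians from 0.51 to 1.25, and the widest points belong to Ttr, Slc4a5, Kcne2, Cldn2 and Folr1.

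The level of choroid plexus RNA also varied among the 7 libraries with more. Within a chosen set of choroid plexus genes, Kl and Folr1 of the split among them, most varied with Ttr. The other choroid plexus genes tested were not compared in this way. For each 1000 reads of Ttr, Kl had 32.1 to 42.3 reads, a spread of 1.32-fold between the highest and the lowest of the 7 libraries, where its CPM spread 3.71-fold. Folr1 had 7.29 to 9.95 reads per 1000 of Ttr, spread 1.36-fold against 4.21-fold in CPM. Sostdc1 spread 1.34-fold against 3.90-fold, Aqp1 1.499-fold against 5.22-fold, and Tmem72 1.53-fold against 4.65-fold. The ratio to Ttr varied less than the level itself for each gene compared except Otx2, over libraries of all 4 genotypes.

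Otx2 was the exception among the 16 genes compared. It had 10.7 reads per 1000 of Ttr in APP/PS1/Sirt3-/- replicate 2 and 4.20 in WT replicate 2, a spread of 2.54-fold where its CPM spread only 1.76-fold. Prlr spread 2.58-fold in the ratio and 3.42-fold in CPM, with 9.10 reads in APP/PS1 replicate 4 and 23.4 in Sirt3-/- replicate 2. Kcnj13, a potassium channel with fewer reads than the others, spread 2.83-fold in the ratio and 8.40-fold in CPM. Enpp2, at 442 to 757 reads per 1000 of Ttr, spread 1.71-fold in the ratio and 2.71-fold in CPM. Oligodendrocytes also make Enpp2, and it was 169 to 221 CPM in the libraries with less.

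**Figure D3:**
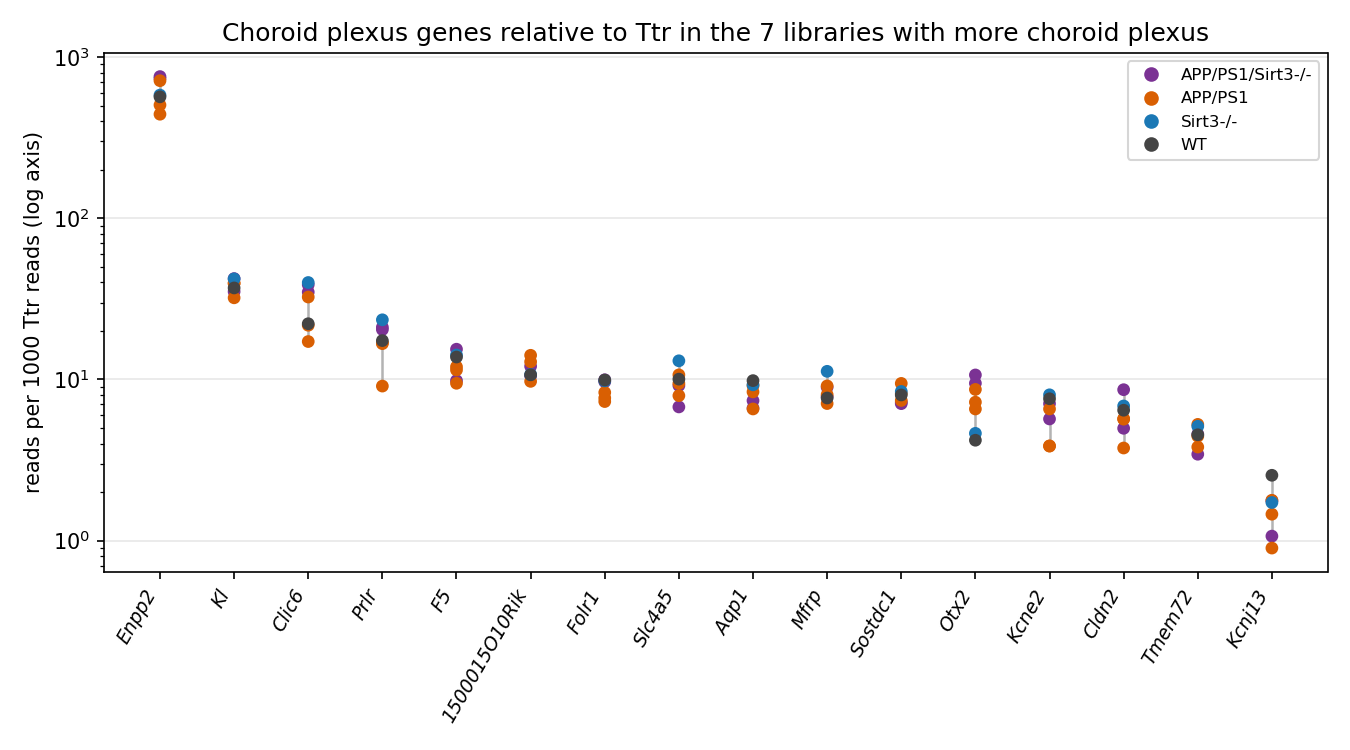
Reads of 16 choroid plexus genes per 1000 reads of Ttr on a log axis, with a point for each of the 7 libraries with more choroid plexus, coloured by genotype. The points of Kl lie between 32.1 and 42.3 and those of Folr1 between 7.29 and 9.95, while those of Otx2 run between 4.20 and 10.7.

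Ependymal cells, which line the ventricles and join the choroid epithelium, were followed by 18 tested genes of motile cilia. None of them separated the classes. Over all genes 1.15% were higher and 0.762% lower without overlap, so a count of none in a short list says little. Their mean log2 CPM was 1.38 to 2.11 in the libraries with more and 0.95 to 1.74 in those with less, highest in Sirt3-/- replicate 2 and lowest in WT replicate 4. The summed level of the list was 62.7 to 102 CPM in the libraries with more and 56.8 to 80.1 CPM in those with less.

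Genes listed for the vessels and stroma of the plexus had a median difference of 0.04. Of 7 tested, 1 was higher without overlap, beside 1.15% of all genes. It was Vwf, the von Willebrand factor of endothelium, at 25.2 to 31.6 CPM in the libraries with more and 20.2 to 25.0 CPM in those with less. What part of these levels comes from the plexus was not tested. Plvap, which forms the diaphragms of leaky capillaries, was 8.495 to 11.8 CPM in the libraries with more and 8.27 to 12.3 CPM in those with less (0.04 ± 0.14). Leptomeningeal fibroblast genes gave none of 14. Ptgds, the prostaglandin D synthase of the meninges, was 704 to 1040 CPM in the libraries with more and 347 to 933 CPM in those with less. It was low in APP/PS1/Sirt3-/- replicate 4 and Sirt3-/- replicate 1 and not in the WT libraries with less.

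Other brain regions differed between libraries too. Their median differences between the classes were 1.54 for hypothalamic, 0.68 for thalamic, 0.53 for hippocampal, 0.32 for habenular and -0.67 for striatal genes, beside 0.51 to 1.25 for the 5 choroid lists. Striatal genes were lowest in a pair of libraries with more, WT replicate 2 and APP/PS1/Sirt3-/- replicate 2, and highest in another, Sirt3-/- replicate 2. Drd1, a dopamine receptor of striatal projection neurons, was 7.18 CPM in APP/PS1/Sirt3-/- replicate 2, 83.0 CPM in Sirt3-/- replicate 2 and 7.11 CPM in WT replicate 2, and 12.4 to 58.4 CPM in the libraries with less. None of 14 striatal genes separated the classes. Their mean log2 CPM in the more and less libraries differed by -1.55 in APP/PS1/Sirt3-/-, 0.70 in Sirt3-/- and -1.04 in WT.

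Thalamic genes were high in APP/PS1 and in the APP/PS1/Sirt3-/- libraries with more choroid plexus, and low in the WT library with more. The list's mean log2 CPM was 4.42 to 4.81 in APP/PS1, 5.07 and 5.06 in APP/PS1/Sirt3-/- replicates 1 and 2, 4.02 in Sirt3-/- replicate 2 and 3.00 in WT replicate 2. In the libraries with less it was 2.73 to 4.18. Tcf7l2, a transcription factor of thalamic neurons, was 17.0 to 60.4 CPM in 6 libraries with more and 6.58 CPM in the other, WT replicate 2, against 4.65 to 22.3 CPM in those with less. None of 12 thalamic genes separated the classes, and Lhx9 was the only member at 1 log2 unit or more within each genotype.

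Hippocampal genes gave 2 of 12 without overlap, C1ql2, a synaptic protein of dentate granule cells, and Dsp, desmoplakin of dentate granule cells and of epithelia. C1ql2 was 8.06 to 37.6 CPM with a median of 18.1 in the libraries with more, and 3.18, 2.17, 5.76, 6.91 and 4.82 CPM in those with less. Dsp was 1.21, 1.37, 4.07, 7.27, 8.96, 5.37 and 4.19 CPM in the libraries with more, in the order used for Otx2, and 0.521 to 0.992 CPM in those with less. Prox1, another gene of dentate granule cells, overlapped at 19.3 to 32.4 CPM in the libraries with more and 11.2 to 19.6 CPM in those with less. Habenular genes were highest in APP/PS1/Sirt3-/- replicate 2, with Pou4f1, their defining transcription factor, at 6.38 CPM there and 0 CPM in WT replicate 2.

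Hypothalamic genes had the highest median difference of all lists but the markers themselves, 1.54 over 9 genes, none of which separated the classes. Their medians were 1.10 in APP/PS1/Sirt3-/-, 2.24 in Sirt3-/- and 0.23 in WT. Hcrt, Avp and Pomc were each highest in libraries with more, in different ones from gene to gene, while Oxt, oxytocin, also reached 19.6 CPM in Sirt3-/- replicate 4, a library with less. Hcrt, the precursor of orexin, was 10.9 CPM in APP/PS1 replicate 1, 10.7 and 6.12 CPM in APP/PS1/Sirt3-/- replicates 1 and 2, and at most 0.457 CPM in the other libraries. Avp, vasopressin, was 49.7 CPM in Sirt3-/- replicate 2, 45.002 CPM in APP/PS1 replicate 1 and 23.6 CPM in APP/PS1/Sirt3-/- replicate 1, and at most 8.99 CPM elsewhere. Pomc, the precursor of melanocortins, was 67.7 CPM in WT replicate 2. The mean log2 CPM of each of these region lists overlapped between the classes, and the part of each region in the results below was not tested.

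Cortical genes had a median difference of -0.35 over 14 genes, none of which separated the classes. The medians were -0.006 in APP/PS1/Sirt3-/-, -0.88 in Sirt3-/- and -0.10 in WT, so the pooled value rests on Sirt3-/-, whose class with more is replicate 2 alone. Sirt3-/- replicate 2 had the lowest mean log2 CPM of this list, 5.30, against 5.52 to 6.24 in the other libraries with more and 5.65 to 6.31 in those with less. Of 10 oligodendrocyte genes none separated the classes, at a median difference of 0.23. Hemoglobin genes, whose paralogs share reads, were low in Sirt3-/- replicates 2 and 4, with Hba-a1 at 13.4 CPM and 18.3 CPM, against 61.2 to 183 CPM in all others.

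**Figure D4:**
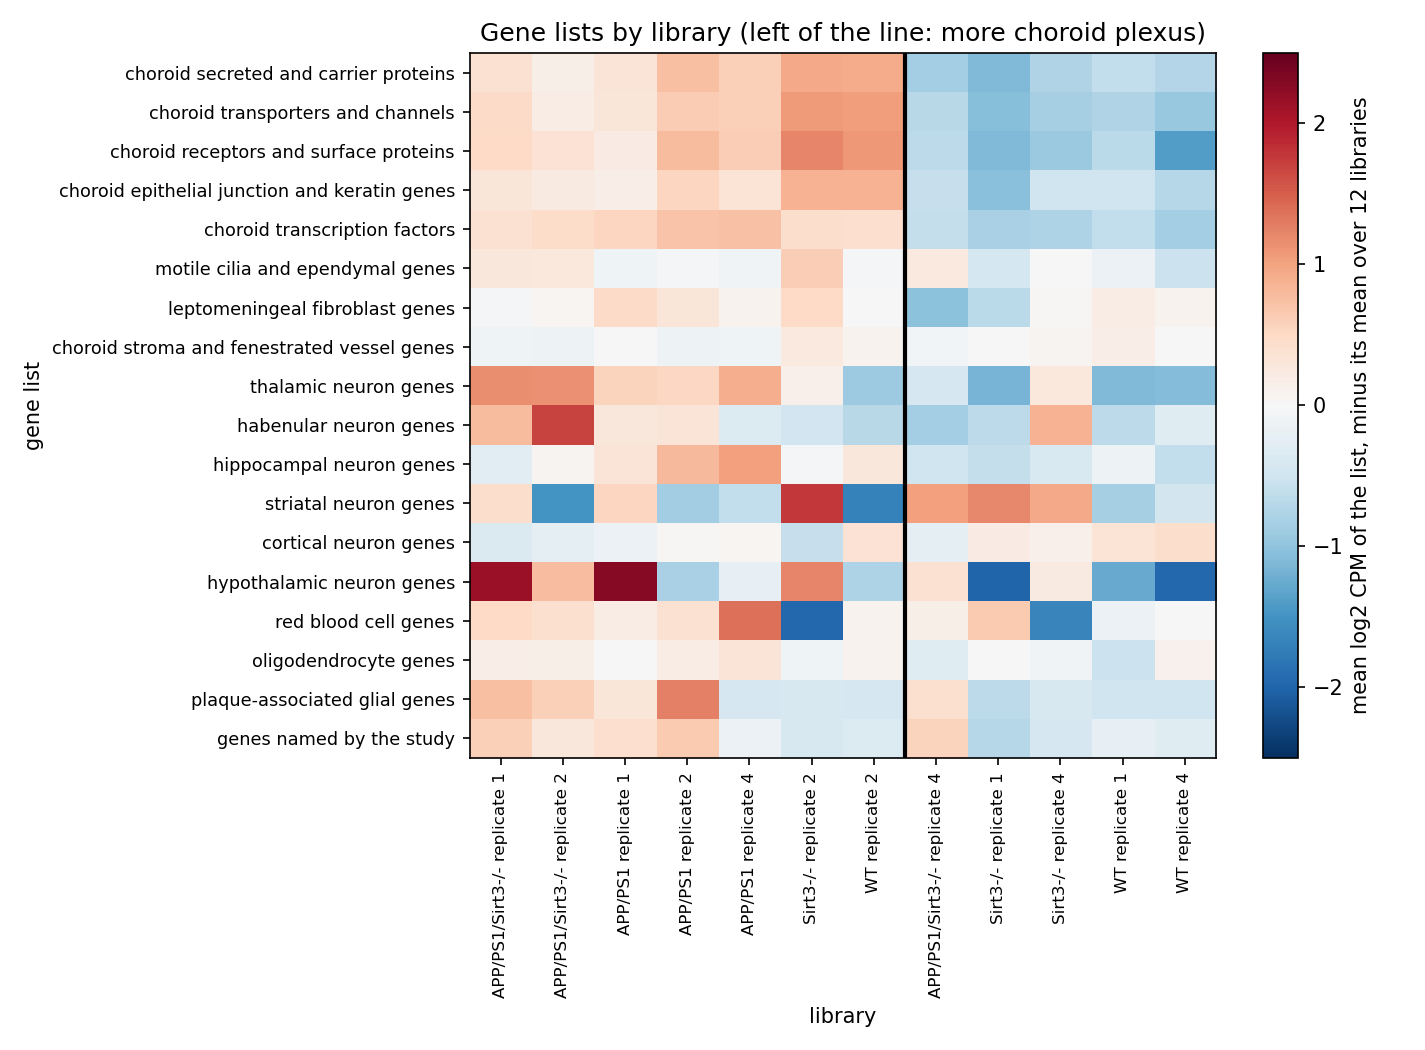
Mean log2 CPM of each gene list in each library, minus the list's mean over the 12 libraries, with the 7 libraries with more choroid plexus left of the line and the 5 with less right of it. The choroid lists are high in all columns left of the line, whereas the striatal list is high in Sirt3-/- libraries of both classes and low in WT replicate 2 and APP/PS1/Sirt3-/- replicate 2.

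Over all 16673 genes, the class took a larger share of the variance of log2 CPM than genotype did for 3053 genes (18.3%). The median share was 37.1% for genotype and 10.7% for the class. Among the 73 choroid plexus genes tested the class took the larger share for 54. This held for 14 of 19 secreted proteins, 18 of 21 transporters, 9 of 13 receptors, 9 of 13 junction genes and 4 of 7 transcription factors. It also held for 8 of 10 oligodendrocyte genes and 7 of 18 genes of motile cilia, and for 4 of 12 hippocampal, 4 of 14 leptomeningeal and 3 of 12 thalamic genes. It held for none of the 14 striatal and 9 hypothalamic genes and for 1 of the 25 genes that the study names.

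**Figure D5:**
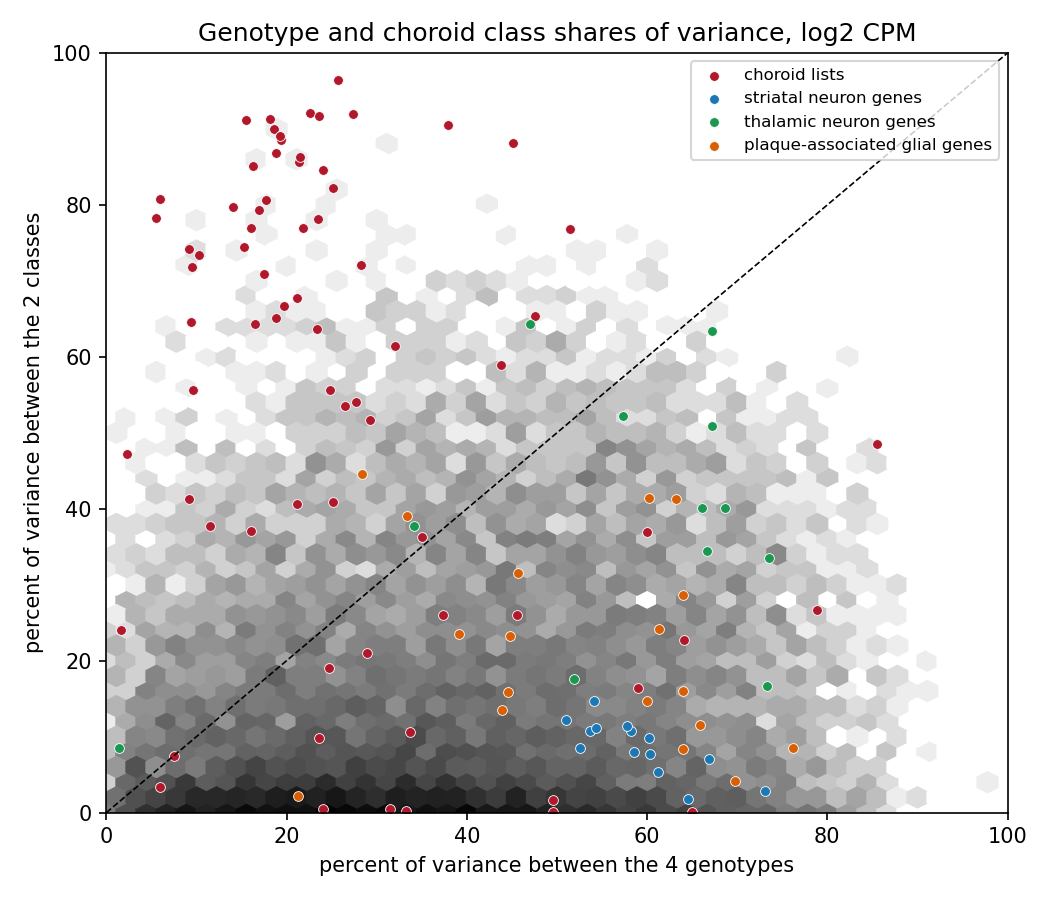
Percent of the variance of log2 CPM between the 2 choroid classes (vertical axis) against the percent between the 4 genotypes (horizontal axis). The 16673 genes tested are shown as a binned density in grey. Points mark the genes of the choroid, striatal, thalamic and plaque-associated glial lists. Ttr lies at 96.5% class and 25.7% genotype, and 54 of 73 choroid genes lie above the dashed line of equal shares.

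Genes outside the lists were looked for with a difference of at least 1 log2 unit in the same direction within each of the 3 genotypes. Over all genes, 52 were higher (0.312%) and 6 were lower (0.036%), and 25 of the 52 and all 6 of the lower were in none of the lists. Ranked by the smallest of their 3 differences, the leading genes included several of epithelia. Best3, a bestrophin chloride channel, was 0.589 to 1.46 CPM in the libraries with more and 0 to 0.380 CPM in those with less. Wfdc2, a secreted protein of epithelia, was 0.803 to 2.06 CPM in the libraries with more and 0 to 0.400 CPM in those with less. Tjp3, a tight junction scaffold, was 1.64 to 3.26 CPM in the libraries with more and 0.347 to 0.856 CPM in those with less.

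Prr32, Wdr86, Wdr72 and Gmnc also separated the classes. Gmnc, geminin coiled-coil domain containing, directs the formation of cells with many cilia, and was 0.686 to 2.19 CPM in the libraries with more and 0.0579 to 0.443 CPM in those with less. Wdr86 was 1.95 to 6.85 CPM in the libraries with more and 0.248 to 1.48 CPM in those with less. A2m, a secreted protease inhibitor, was 4.71 to 19.5 CPM in the libraries with more and 1.18 to 3.61 CPM in those with less. All of these levels are low, and Prr32 and Wdr72 had 0 reads in some of the libraries with less.

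Some genes outside the lists separated the classes or passed the threshold without being known from choroid epithelium. Slc6a3, the dopamine transporter of midbrain neurons, was 60.3 CPM in APP/PS1/Sirt3-/- replicate 2, 26.1 CPM in APP/PS1/Sirt3-/- replicate 1, 4.95 to 11.98 CPM in APP/PS1, 0.817 CPM in Sirt3-/- replicate 2 and 0.332 CPM in WT replicate 2. It was 0 to 0.289 CPM in the libraries with less. Xist passed within each genotype, yet it overlapped between the classes, at 0.628 to 551 CPM in the libraries with more and 0.508 to 672 CPM in those with less. It was low in every replicate 4. Of the 6 lower genes, 5 are on the Y chromosome (Ddx3y, Kdm5d, Eif2s3y, Uty and RP24-540G19.3), and their reads lie in the same 4 libraries. The sixth, Mat1a, a methionine adenosyltransferase, was 0.0584 to 1.15 CPM in the libraries with more and 0.186 to 2.43 CPM in those with less.

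The genotype comparisons were then fitted with edgeR's quasi-likelihood test in 2 designs, the 4 group means and the same with the choroid class as a term. P-values were adjusted over all 16673 genes (Benjamini-Hochberg), and genes under 0.05 passed. Since the class was read from the same libraries, the second fit only describes which calls came or went with the class term. The class was also uneven over the libraries with Y-linked reads and over the replicate numbers. Whether tissue content accounts for a call gained or lost was not tested.

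Levels of Ttr varied within every genotype, with a mean of 336 ± 288 CPM in APP/PS1/Sirt3-/-, 858 ± 328 CPM in APP/PS1, 401 ± 679 CPM in Sirt3-/- and 532 ± 897 CPM in WT (SD, n = 3 each). In edgeR's fit of group means the log2 change of Ttr was 0.69 with a standard error of 2.26 in APP/PS1 against WT (adjusted p = 0.906), and -0.66 with one of 2.27 in APP/PS1/Sirt3-/- against WT. A fit with the class says nothing on Ttr, which set the class. For Enpp2 in APP/PS1 against WT the standard error was 0.72 with group means and 0.26 with the class.

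All 3 libraries of APP/PS1 hold more choroid plexus, as do 2 of 3 in APP/PS1/Sirt3-/- and 1 of 3 in WT. With group means, the medians of the fitted changes of the choroid lists in APP/PS1 against WT were 0.27 for secreted proteins, 0.16 for transporters, 0.31 for receptors, 0.18 for junction genes and 0.57 for transcription factors, beside 0.006 over all genes. With the class as a term they were -0.28, -0.33, -0.31, -0.45 and 0.33, beside 0.002 over all genes. The first 4 medians changed sign and the last did not. In APP/PS1/Sirt3-/- against WT the medians with group means were -0.25, -0.01, -0.18, -0.19 and 0.34 in the same order, so 4 of 5 were negative although this group had more libraries with choroid plexus than WT. With the class as a term they were -0.58, -0.26, -0.36, -0.48 and 0.23. Compared with WT replicate 2 alone, the WT library with more choroid plexus, Ttr in APP/PS1 lay 0.96 lower on the log2 scale and Kl also 0.96 lower. This rests on a single WT library, which was the highest of the 12 for all 3 markers.

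None of the choroid list genes passed in any of the 4 genotype comparisons with group means. With the class as a term, 3 of 73 passed in APP/PS1/Sirt3-/- against WT and none elsewhere. In edgeR's fit Igfbp2 changed by -0.65 ± 0.12 on the log2 scale (± standard error, adjusted p = 0.0349), Msx1 by -1.08 ± 0.19 (adjusted p = 0.0258) and Kcnj13 by -2.56 ± 0.51 (adjusted p = 0.0409). Their adjusted p with group means was 0.597, 0.387 and 0.533. In that comparison 133 genes passed with the class (0.798%), 50 of them lower (0.3%). Choroid genes defined the class, so these 3 calls are no independent evidence of a change with genotype.

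In Sirt3-/- against WT, 49 genes passed with group means (0.294%), 39 higher and 10 lower. With the class as a term 94 passed (0.564%), 60 higher and 34 lower. All 49 were among the 94, and 45 passed only with the class. In APP/PS1/Sirt3-/- against WT, 188 passed with group means (1.13%), 129 higher and 59 lower. There 105 passed in both fits, 83 only with group means and 28 only with the class. In APP/PS1/Sirt3-/- against APP/PS1, 4 passed with group means (0.024%) and 3 of these also with the class (0.018%).

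No gene passed in APP/PS1 against WT in either edgeR fit, while DESeq2 with group means called 502. At an unadjusted p under 0.05 there were 2836 genes with group means (17.0%) and 1512 with the class as a term (9.07%), of which 1196 were the same genes. This is the comparison whose classes were least balanced, with all 3 APP/PS1 libraries in 1 class.

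These counts depend on single libraries. Leaving out each of the 12 libraries in turn gave 2 to 116 genes in Sirt3-/- against WT, 0 to 584 in APP/PS1 against WT and 2 to 1172 in APP/PS1/Sirt3-/- against WT with group means. The highest of these counts came without APP/PS1/Sirt3-/- replicate 4 in the first comparison and without Sirt3-/- replicate 2 in the other two, and the lowest of the first without WT replicate 1. With the class as a term the ranges were 7 to 240, 0 to 167 and 14 to 1138.

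The leading genes that passed in both fits did not separate the choroid classes. Eif3j2, a copy of the translation initiation factor gene Eif3j1 with which it shares sequence, was 9.47, 9.60 and 14.9 CPM in APP/PS1/Sirt3-/- and 9.06, 14.3 and 16.6 CPM in Sirt3-/-. It was 1.02, 0.901 and 0.856 CPM in APP/PS1 and 0.742, 0.532 and 0.889 CPM in WT. The groups labelled with the deletion did not overlap those labelled without it. It rose in Sirt3-/- against WT by 4.19 ± 0.30 on the log2 scale for group means (± standard error, edgeR's adjusted p = 2.8e-05) and by 4.21 ± 0.29 for the class (adjusted p = 1.8e-05). Gm3650, annotated as a pseudogene, and Pcna-ps2, named as a copy of Pcna, had the same pattern, Gm3650 at 3.80 to 6.60 CPM in APP/PS1/Sirt3-/- and 4.34 to 7.36 CPM in Sirt3-/-, against 0 to 0.0643 CPM in APP/PS1 and 0 to 0.190 CPM in WT. Reads of such copies can be assigned to the wrong one.

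Pla2g4e, a phospholipase A2, was 30.1, 34.98 and 50.5 CPM in APP/PS1/Sirt3-/- and 41.1, 56.3 and 62.4 CPM in Sirt3-/-, against 5.78, 8.81 and 9.59 CPM in APP/PS1 and 8.56, 11.9 and 10.5 CPM in WT. It rose in Sirt3-/- against WT with and without the class (log2 fold change 2.37 in both, adjusted p = 0.00788 with group means and 0.0149 with the class, from edgeR). In APP/PS1/Sirt3-/- against APP/PS1 it passed only with group means (adjusted p = 0.0119 and 0.0686). Spock3, a proteoglycan, rose in Sirt3-/- against WT in both fits (0.98). Scara3, a scavenger receptor, fell and Serpine2, a protease inhibitor of the nervous system, rose in APP/PS1/Sirt3-/- against WT in both (-0.81 and 0.51 with group means).

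Other calls came or went with the class. Shank1, a scaffold of excitatory synapses, was 841, 822 and 1175 CPM in APP/PS1/Sirt3-/- and 1089, 692 and 1111 CPM in Sirt3-/-, against 1591, 1286 and 1359 CPM in WT. In Sirt3-/- it was lowest in replicate 2, the library with more choroid plexus, and so it was in WT. Sirt3-/- against WT gave -0.55 ± 0.18 on the log2 scale for group means (± standard error, edgeR's adjusted p = 0.212) and -0.58 ± 0.09 for the class (adjusted p = 0.0168). Shank2, a relative of Shank1, and Dlk2 likewise passed as lower only with the class, while Klhl1 and P2ry1 passed as higher only with the class.

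In APP/PS1/Sirt3-/- against WT, the 5 leading genes that passed only with group means were Pcdh7, Zfhx3, Ahi1, Igfn1 and Col5a1. Their adjusted p was 0.0327 to 0.0371 with group means and 0.0507 to 0.0690 with the class, and their fold changes differed little between the fits (Zfhx3 1.86 and 1.74, Col5a1 -0.997 and -0.97). These calls were lost with other choices as well, and were kept in 8 (Zfhx3 and Col5a1) to 11 (Pcdh7 and Ahi1) of 20 alternatives. Gata3 and Foxb1, transcription factors of midbrain, thalamic or hypothalamic neurons, passed only with the class, and so did Mab21l2. Gata3 was 4.04, 3.85 and 0 CPM in APP/PS1/Sirt3-/- replicates 1, 2 and 4 and 0 in all 3 WT libraries, so the WT library with more choroid plexus lacked it as well. Kcnh3, a potassium channel of forebrain neurons, and Zfp703 passed as lower only with the class.

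None of the 18 plaque-associated glial genes tested and none of the 25 genes that the study names separated the classes. Over all genes 1.15% were higher and 0.762% lower without overlap, so these counts say little. The median differences of the lists were 0.12 and -0.01. The median fitted change of the plaque-associated genes in APP/PS1 against WT was 0.68 with group means and 0.36 with the class as a term. Of the 18, 9 and 6 had an unadjusted p under 0.05 in edgeR's fits, beside 17.0% and 9.07% of all genes. Cst7, cystatin F of activated microglia, was 2.94, 15.6, 6.18 and 6.70 CPM in APP/PS1 replicates 1 and 2 and APP/PS1/Sirt3-/- replicates 1 and 2, 0.0571 CPM in APP/PS1 replicate 4, and 0.199 and 0 CPM in the WT and Sirt3-/- libraries with more. It was 5.03 CPM in APP/PS1/Sirt3-/- replicate 4 and 0 to 0.443 CPM in the other libraries with less. The libraries with the higher Cst7 levels were the 5 with the higher App reads, in both choroid classes.

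Ide, the insulin-degrading enzyme, was 38.6, 63.3 and 38.8 CPM in APP/PS1/Sirt3-/- and 41.7, 35.6 and 38.8 CPM in Sirt3-/-, against 80.5, 74.4 and 86.0 CPM in APP/PS1 and 77.3, 62.0 and 79.3 CPM in WT. Its difference between the classes was 0.35 in APP/PS1/Sirt3-/-, -0.18 in Sirt3-/- and -0.34 in WT. The log2 fold change in Sirt3-/- against WT was -0.91 in both fits (adjusted p = 0.0635 with group means and 0.0755 with the class, from edgeR). In CPM on the log2 scale it was -0.80 between the single libraries with more choroid plexus of each group, and -0.96 between the 2 with less of each. In APP/PS1/Sirt3-/- against WT it was -0.63 (adjusted p = 0.0861) with group means and -0.61 (adjusted p = 0.164) with the class. Within APP/PS1/Sirt3-/-, the 63.3 CPM was that of replicate 2, which held 4 Sirt3 reads. Replicates 1 and 4, with the lower Ide levels of 38.6 and 38.8 CPM, held 495 and 479 Sirt3 reads. These changes go by label, and Ide against measured Sirt3 was not tested.

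Cd83, a surface protein of activated microglia and dendritic cells, was the only study gene that passed, and it did so in APP/PS1/Sirt3-/- against WT in both fits. It was 25.1, 25.5 and 18.3 CPM in APP/PS1/Sirt3-/- and 21.2, 24.3 and 19.8 CPM in APP/PS1, against 9.68, 16.3 and 11.02 CPM in Sirt3-/- and 9.42, 12.8 and 9.59 CPM in WT. In each of APP/PS1/Sirt3-/-, Sirt3-/- and WT it was higher in the libraries with more choroid plexus, by 0.47, 0.66 and 0.43. It rose by 1.12 ± 0.20 on the log2 scale for group means (± standard error, edgeR's adjusted p = 0.0317) and by 0.94 ± 0.11 for the class (adjusted p = 0.0042). Sirt3 itself, also named by the study, did not pass in Sirt3-/- against WT in either fit. It had 3, 8 and 7 reads in Sirt3-/- against 1064, 957 and 1016 in WT. The spread is estimated over all groups together, and APP/PS1/Sirt3-/- held 495, 4 and 479 Sirt3 reads. A gene that did not pass is thus not shown to be unchanged.

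Among the other study genes, the one whose class share was larger than its genotype share was Dgkz, a diacylglycerol kinase of neurons, with 60.8% and 42.6%. It was 477 to 784 CPM in the libraries with more and 722 to 830 CPM in those with less, at a mean difference of -0.40 ± 0.35. App, Prnp, Bace1 and Dgke differed by -0.17 (Bace1 in WT) to 0.11 (Dgke in APP/PS1/Sirt3-/-) between the classes of a genotype. Mme, neprilysin, differed by -0.35 in APP/PS1/Sirt3-/-, 0.47 in Sirt3-/- and -0.78 in WT, and Dgkk by 0.18, 2.86 and -1.08, so neither had 1 direction. C3, complement component 3, had none either, with -1.22 in APP/PS1/Sirt3-/-, 1.04 in Sirt3-/- and 1.13 in WT. Clec7a, a receptor of activated microglia, differed by 0.40, 0.61 and -1.29 at levels of at most 3.35 CPM. Dgkb, Dgkg and Dgki also went opposite ways between genotypes, within -0.43 and 0.71. Ccl3, Itgax, Tyrobp, Serpina3k, Dgka, Dgkd, Dgkh and Dgkq differed by -0.63 (Ccl3) to 0.81 (Itgax), both in Sirt3-/-.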

How the data were processed

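RNA-seq was made from the cortex of 12 mice in 4 groups of 3. The authors used TopHat, with at most 2 mismatches, against GRCm38 (mm10), and deposited read counts and FPKM of each gene and library. For the gene counter, its strand setting and its annotation, the sources used here give no name. The deposited FPKM equals the count divided by gene length and by the library's total. The authors' 4 group mean FPKM columns, fold changes and p-values were not used. Of 35275 genes in the table, 16673 passed edgeR's filter on low counts.

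Counts were scaled by TMM and fitted with edgeR 4.0.16 (quasi-likelihood, robust, 4 group means) and limma 3.58.1 in R 4.3.3, with Benjamini-Hochberg adjustment at 0.05. Differences between the choroid classes are on log2 CPM with a prior count of 2, within each genotype that had both classes, and have no test. DESeq2 1.42.0, other scaling, no filter, log2(FPKM + 0.1), a block, a class term, a choroid score as a covariate and leaving out libraries were alternatives. The fits were tested on simulated data. The members and the gene lists were chosen with earlier results of these data known. The genes named by rule were the 3 markers, up to 5 members of each list by mean FPKM, up to 10 genes outside the lists in each direction by the smallest of their 3 within-genotype differences, up to 5 by adjusted p in each genotype comparison for those called in both fits, with group means only and with the class only, and the genes that the study names. Others were named after their values were seen. Libraries were taken as separate mice, and p-values measure the spread between them. Promoters were read from RefSeq (GRCm38.p6), and windows on chromosome 18 were not used here. Results on some genes are not reported here.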

Additional observations from a re-analysis of the deposited data

Results flagged for a closer look

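In 7 gene lists the libraries with more choroid plexus lay to one side of those with less in 1 genotype and to the opposite side in another, with no overlap in either. These are differences in mean log2 CPM, more minus less, and whether they differ between genotypes was not tested, since a genotype has only 3 libraries.

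Leptomeningeal fibroblast genes differed by 1.02 in APP/PS1/Sirt3-/-, by 0.82 in Sirt3-/- and by -0.15 in WT. Stroma and fenestrated vessel genes differed by -0.06 in APP/PS1/Sirt3-/- and by 0.2 in Sirt3-/-. Habenular genes, high in APP/PS1/Sirt3-/- replicate 2, differed by 2.09 in APP/PS1/Sirt3-/- and by -0.21 in WT. Striatal genes differed by -1.55 in APP/PS1/Sirt3-/-, by 0.7 in Sirt3-/- and by -1.04 in WT.

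Red blood cell genes, low in Sirt3-/- replicates 2 and 4, differed by 0.29 in APP/PS1/Sirt3-/-, by -1.47 in Sirt3-/- and by 0.14 in WT. Oligodendrocyte genes differed by 0.45 in APP/PS1/Sirt3-/- and by -0.05 in Sirt3-/-. The genes that the study names differed by 0.16 in Sirt3-/- and by -0.08 in WT.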

How the results depend on the processing

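Of 20 alternatives, 16 moved the count of called genes by over 1.5 times in each of Sirt3-/- against WT and APP/PS1/Sirt3-/- against WT, 9 in APP/PS1 against WT and 3 in APP/PS1/Sirt3-/- against APP/PS1. DESeq2's size factors in edgeR moved none, and no alternative moved that of choroid list genes. In the order Sirt3-/- against WT, APP/PS1 against WT, APP/PS1/Sirt3-/- against WT and APP/PS1/Sirt3-/- against APP/PS1, DESeq2 called 433, 502, 1050 and 7 genes, beside 49, 0, 188 and 4 with edgeR. The class term gave 94 in the first, and a choroid score as covariate 98, 4 and 489 in the first 3. Without a filter 87 and 88 were called in the first and second. Leaving out each replicate in turn gave 2 to 116, 0 to 584, 2 to 1172 and 2 to 6. The replicate block gave 18, 0, 115 and 4. The labels give the numbers no meaning, and they were not taken as pairs, since deviations of same-numbered libraries correlated over 0.1 in 9 of 18 pairs (-0.11 to 0.23), against 5 of 36 with different numbers (-0.27 to 0.20). The 9 include 5 of the 6 pairs numbered 4, the libraries with Y-linked reads, and 1 of the 6 numbered 1. 2 exclusions were chosen after seeing the data. Without the 3 libraries against their App or Sirt3 label, 25 genes were called in APP/PS1 against WT and 7 in APP/PS1/Sirt3-/- against APP/PS1. Without the 4 with Y-linked reads, 15, 9 and 67 were called in the first 3.

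Of genes that separated the classes, 433 were higher and 346 lower without the 3 libraries, and 1165 and 868 without the 4, as fewer libraries overlap less. Those at 1 log2 unit or more were 99 and 11 without the 3, and 103 and 11 without the 4. On log2(FPKM + 0.1), 73 were lower. Leaving out each replicate gave 207 to 424 higher, 135 to 546 lower, 48 to 124 higher by 1 log2 unit or more, 1 to 33 lower by as much, and 34 to 40 of the 70 choroid list genes. Without the 4 libraries with Y-linked reads the differences of Xist (-0.13) and Eif2s3y (0.32) changed sign. Genes with under 10 reads in the libraries with less are limited by depth.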
